A study of Mus musculus with 24 samples.

Results

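Chemokines whose transcripts are known to respond to bacterial lipopolysaccharide (LPS) were followed as a group of 10 genes, Cxcl1, Cxcl2, Cxcl9, Cxcl10, Cxcl13, Ccl2, Ccl3, Ccl4, Ccl5 and Ccl12. They were chosen by name, with earlier results of these data known, and matched to the Ensembl identifiers of the deposited count tables. These held all 10 among 53700 identifiers in microglia and 55487 in astrocytes. The tables came from 24 RNA sequencing libraries of immunopanned mouse brain cells, 3 in each of 8 groups. Microglia were taken from whole brain and astrocytes from cerebral cortex. The mice were adults, either Serpine2-/-, called knockouts here, or littermates that kept 1 or more working Serpine2 alleles, called controls. Each had been injected with saline or with LPS, a component of the bacterial outer membrane, and all were perfused with phosphate buffered saline. The groups in each cell type were thus saline control, saline knockout, LPS control and LPS knockout. The LPS dose, the time after injection, the exact age, the strain and whether cells of several mice were pooled were not given in the sources used here, and the Serpine2-/- genotype is that of the whole animal, not of one cell type.

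Chemokines are small secreted proteins that bind G protein coupled receptors on leukocytes and guide their migration, and the CXC and CC families are named for the spacing of their first cysteines. LPS is sensed through Cd14 and Tlr4, whose signals lead to the transcription factor NF-kB and, through type I interferon, to the interferon regulatory factors. Microglia and astrocytes are both known sources of chemokines in the inflamed brain.

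Reads assigned to genes numbered 4506142 to 13621776 in a microglia library and 10944765 to 25135252 in an astrocyte library. The share of reads that fell in no gene was 56.2% to 72.7% in microglia libraries and 15.9% to 21.1% in astrocyte libraries. Values are given as CPM, the reads of a gene scaled to the library's normalized total. Serpine2 lay between 16.4 and 22.2 CPM in the 12 knockout libraries and between 46.6 and 169 CPM in the 12 control libraries, so reads on the gene remained in knockouts and the groups did not overlap. The library microglia LPS control 1, labelled female, held 5.50 CPM of Xist and 18.9 CPM of Ddx3y and so went against its label. The other libraries matched theirs, and without it the same 7 genes were called in microglia over both genotypes as given next. In astrocytes, LPS control 3 and LPS knockout 3 held less Cxcl1, Cxcl2, Cxcl9, Cxcl10, Ccl2, Ccl3 and Ccl5 than the other 4 LPS libraries. This did not hold for Ccl4 and Ccl12. LPS control 3 and LPS knockout 3 were labelled female and the other 4 male. Astrocyte markers summed to between 14026 and 20263 CPM in astrocyte libraries, and microglia markers to between 1336 and 4967 CPM in microglia libraries. Microglia libraries also held 1706 to 2667 CPM of 6 neuron markers and 1124 to 3417 CPM of 5 oligodendrocyte markers, so levels there are those of the preparations.

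LPS raised most of the chemokines in both cell types. Averaged over both genotypes, 7 of the 10 genes rose in microglia (Cxcl2, Cxcl10, Cxcl13, Ccl2, Ccl3, Ccl5 and Ccl12), where 2.19% of all genes tested were called higher. In astrocytes 6 of the 10 rose (Cxcl2, Cxcl9, Cxcl10, Ccl2, Ccl5 and Ccl12), where 4.98% of all genes were called higher. Cxcl9 and Cxcl1 were too low to test in microglia, and Cxcl13 was too low in astrocytes. Because a gene can pass the count filter through its LPS libraries alone, counts are given out of all 10. The genes were chosen with earlier results of these data known, so their excess over all genes is not an independent test. Calls are edgeR quasi-likelihood tests with Benjamini-Hochberg adjustment over all genes and a threshold of 0.05. These are bulk libraries, so fewer or more cells of a type and less or more RNA per cell cannot be told apart.

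Within one genotype fewer genes passed. In control microglia 3 of 10 rose (Cxcl10, Cxcl13 and Ccl5; 0.526% of all genes were called higher), and in knockout microglia 6 of 10 rose (those 3 with Cxcl2, Ccl2 and Ccl12; 1.01% of all genes). Control astrocytes gave 2 of 10 (Cxcl9 and Ccl12; 0.775% of all genes) and knockout astrocytes 4 of 10 (Cxcl2, Cxcl9, Ccl5 and Ccl12; 1.35% of all genes). These counts do not show that the genotypes differ, a comparison that was tested on its own and is given further on. Leaving out 1 library at a time gave 2 to 4 calls in control microglia, 3 to 7 in knockout microglia, 0 to 4 in control astrocytes and 0 to 5 in knockout astrocytes. Averaged over genotypes it gave 7 calls in every case in microglia and 4 to 8 in astrocytes.

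Every LPS library lay above every saline library for 7 genes in microglia (Cxcl10, Cxcl13, Ccl2, Ccl3, Ccl4, Ccl5 and Ccl12), a separation that 1.92% of all genes showed. In astrocytes it held for 5 genes (Cxcl9, Cxcl10, Ccl2, Ccl5 and Ccl12), against 2.67% of all genes. Some of these genes had too few saline counts to pass the count filter without LPS libraries. They were Cxcl10 and Cxcl13 in microglia and Cxcl9, Ccl2, Ccl5 and Ccl12 in astrocytes. For them the filter itself favours such a separation, so it is not independent support.

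**Figure D1:**
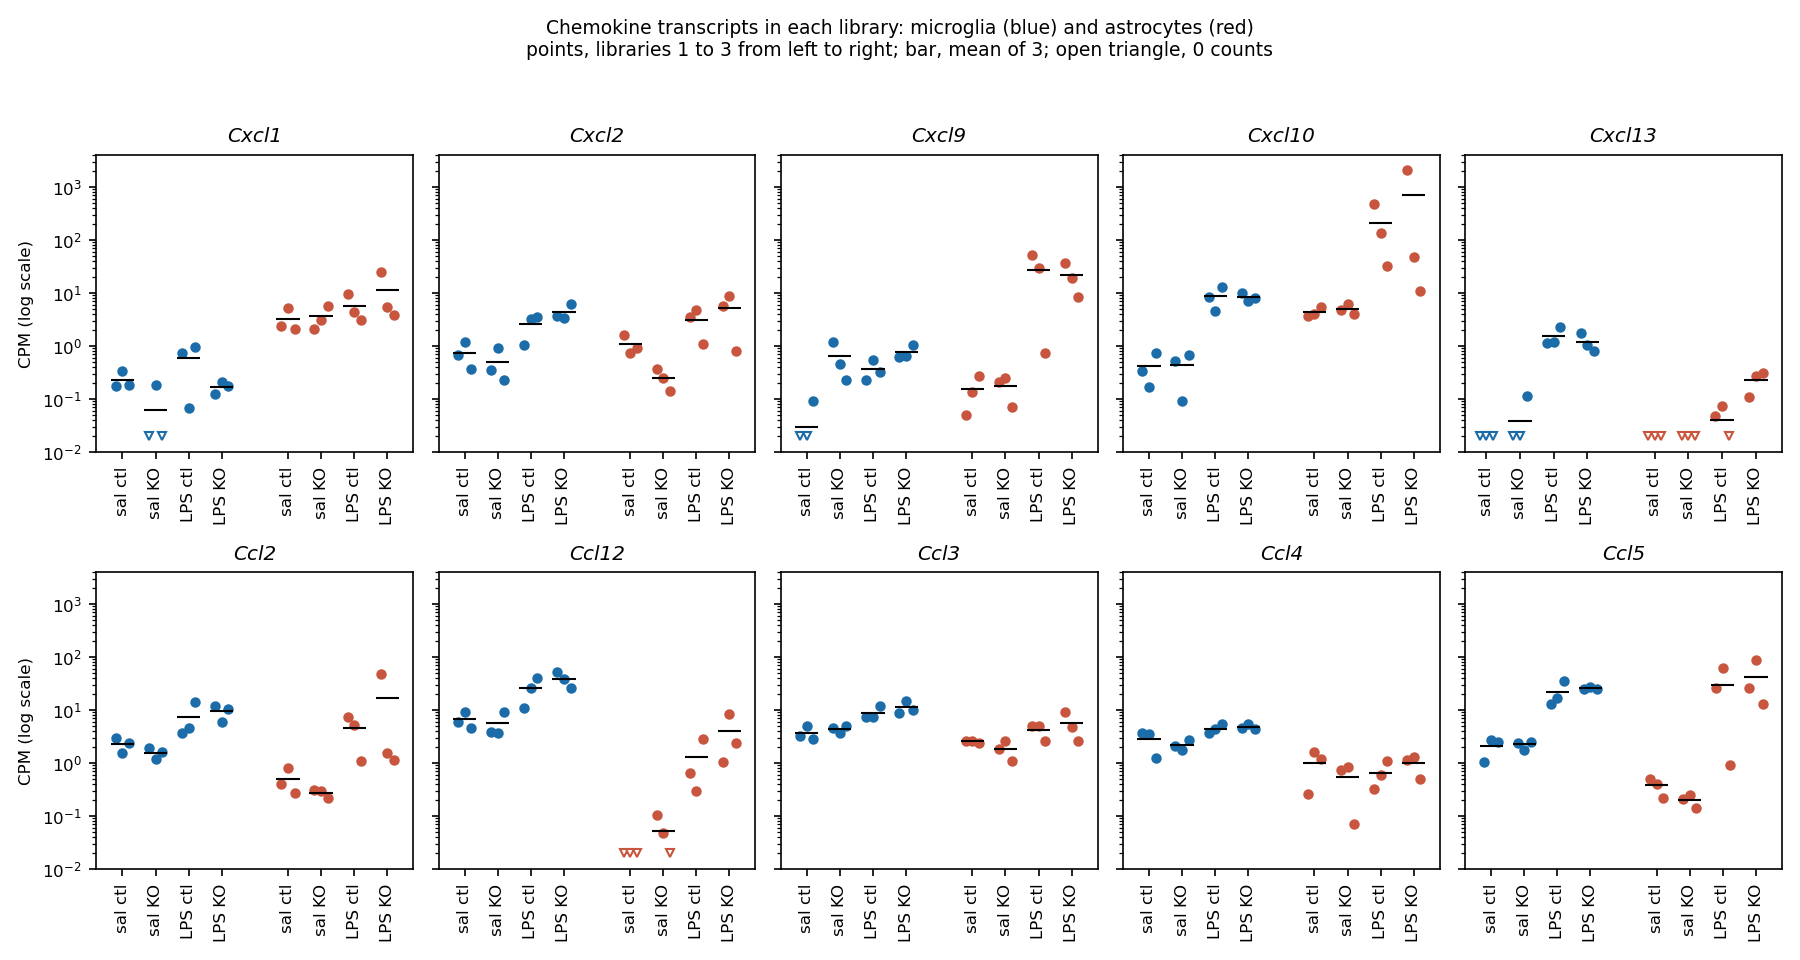
CPM of the 10 chemokines in each of the 24 libraries, on a log axis, with microglia in blue and astrocytes in red; ctl is control, KO is knockout, sal is saline, bars are means of 3 libraries and open triangles are libraries with 0 counts. The astrocyte LPS libraries spread much more widely than the microglia LPS libraries for Cxcl10, which ran from 10.9 to 2052 CPM and from 4.56 to 13.1 CPM, respectively.

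Cxcl1 and Cxcl2 are ligands of Cxcr2 and draw neutrophils. They lie side by side on chromosome 5 of GRCm38, at chr5:90891241-90893115 and chr5:90903871-90905938, both on the plus strand. Their annotated transcripts share an unbroken run of at most 23 bases, the longest among the 45 pairs of these chemokines. Their promoters are shown because both hold, near the start of transcription, the kB consensus that NF-kB binds. The match is in capitals in the 250 bases before the RefSeq start (GRCm38.p6, plus strand, Cxcl1 at chr5:90890995-90891244 and Cxcl2 at chr5:90903649-90903898):
Cxcl1: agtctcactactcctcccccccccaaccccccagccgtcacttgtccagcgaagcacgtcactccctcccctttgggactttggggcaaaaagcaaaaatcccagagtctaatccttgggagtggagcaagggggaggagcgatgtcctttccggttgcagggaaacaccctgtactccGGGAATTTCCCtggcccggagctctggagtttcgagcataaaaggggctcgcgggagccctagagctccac
Cxcl2: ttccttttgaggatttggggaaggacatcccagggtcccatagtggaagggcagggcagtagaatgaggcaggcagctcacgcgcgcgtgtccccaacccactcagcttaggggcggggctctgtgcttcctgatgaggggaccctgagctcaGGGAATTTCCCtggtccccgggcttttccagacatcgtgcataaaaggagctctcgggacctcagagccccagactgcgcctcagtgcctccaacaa
The capitals span bases −71 to −61 in Cxcl1 and −97 to −87 in Cxcl2, counted back from the start, and in each case a match on the plus strand and one on the minus strand overlap to give 11 bases in all. Of 32851 mouse promoters of the same length, 3.90% held this consensus on either strand.

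In microglia Cxcl2 rose 5.48-fold after LPS, from a low level. In saline it stood at 0.691, 1.20 and 0.363 CPM in control libraries and at 0.347, 0.923 and 0.230 CPM in knockouts. After LPS it stood at 1.06, 3.18 and 3.54 CPM in controls and at 3.63, 3.39 and 6.28 CPM in knockouts. Only LPS control 1 fell within the saline range. Averaged over genotypes this was 2.45 on the log2 scale (SE 0.43, adjusted p 0.00394). Within genotypes it was 3.05 in knockouts (SE 0.60, adjusted p 0.0208) and 1.86 in controls (SE 0.60, adjusted p 0.368). The call in knockouts was lost without saline knockout 1, saline knockout 3 or LPS knockout 3, with values from 2.67 to 3.95 over all libraries left out.

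In astrocytes Cxcl2 was also higher after LPS, by 7.47-fold. In saline, control libraries held 1.63, 0.730 and 0.920 CPM and knockout libraries 0.369, 0.244 and 0.144 CPM. LPS controls held 3.54, 4.83 and 1.07 CPM and LPS knockouts 5.78, 8.73 and 0.817 CPM. The third LPS library of each genotype lay within the saline range and the other 4 above it. The log2 fold change averaged 2.90 (SE 0.56, edgeR adjusted p 0.00466), with 4.28 in knockouts (SE 0.86, adjusted p 0.0195) and 1.52 in controls (SE 0.74, adjusted p 0.431). The call in knockouts was lost without any 1 saline knockout library or LPS knockout 2.

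Cxcl1 did not pass the test in either cell type. In microglia it had 5, 2, 20 and 4 counts in all in the saline control, saline knockout, LPS control and LPS knockout groups, which is too few to test. Astrocytes held 2.40, 5.20 and 2.11 CPM in control and 2.11, 3.08 and 5.67 CPM in knockout saline libraries. After LPS they held 9.38, 4.39 and 3.13 CPM in controls and 25.2, 5.49 and 3.88 CPM in knockouts. Only the first LPS library of each genotype exceeded all saline libraries. On the log2 scale the mean rise was 1.24 (SE 0.46, adjusted p 0.121), and 0.59 without LPS knockout 1. Without LPS knockout 3 it passed (adjusted p 0.0427).

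Cxcl9 and Cxcl10 bind Cxcr3 on activated T cells and natural killer cells, and both are textbook interferon-induced genes. They neighbour each other on the minus strand of chromosome 5, at chr5:92321347-92328079 and chr5:92346638-92348889. The Cxcl10 promoter is shown because it was the single window, of the 7 members in the RefSeq promoter table, that held both the kB consensus and the core of the interferon-stimulated response element (ISRE), a pair of GAAA repeats with 2 bases between them, on either strand (GRCm38.p6, minus strand, chr5:92348890-92349139, matches in capitals):
Cxcl10: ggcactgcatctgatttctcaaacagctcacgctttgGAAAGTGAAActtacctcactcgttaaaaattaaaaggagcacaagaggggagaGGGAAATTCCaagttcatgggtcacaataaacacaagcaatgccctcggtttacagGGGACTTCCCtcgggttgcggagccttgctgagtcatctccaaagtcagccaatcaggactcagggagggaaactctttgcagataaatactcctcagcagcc
The ISRE core spans −213 to −204 and the kB matches span −159 to −150 and −103 to −94, all on the strand of the gene and none overlapping. The ISRE core was found in 2.98% of all 32851 promoters. The Cxcl9 window held neither, and none of the 7 windows held the interferon-gamma activated sequence TTCNNNGAA, found in 7.02% of all promoters. The TATA motif TATAAA lay in the Cxcl9, Cxcl13 and Ccl12 windows and in 12.4% of all promoters. These windows reach 250 bases, and letters farther away were not searched. The members not in that table were Ccl2, Ccl4 and Ccl5.

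**Figure D2:**
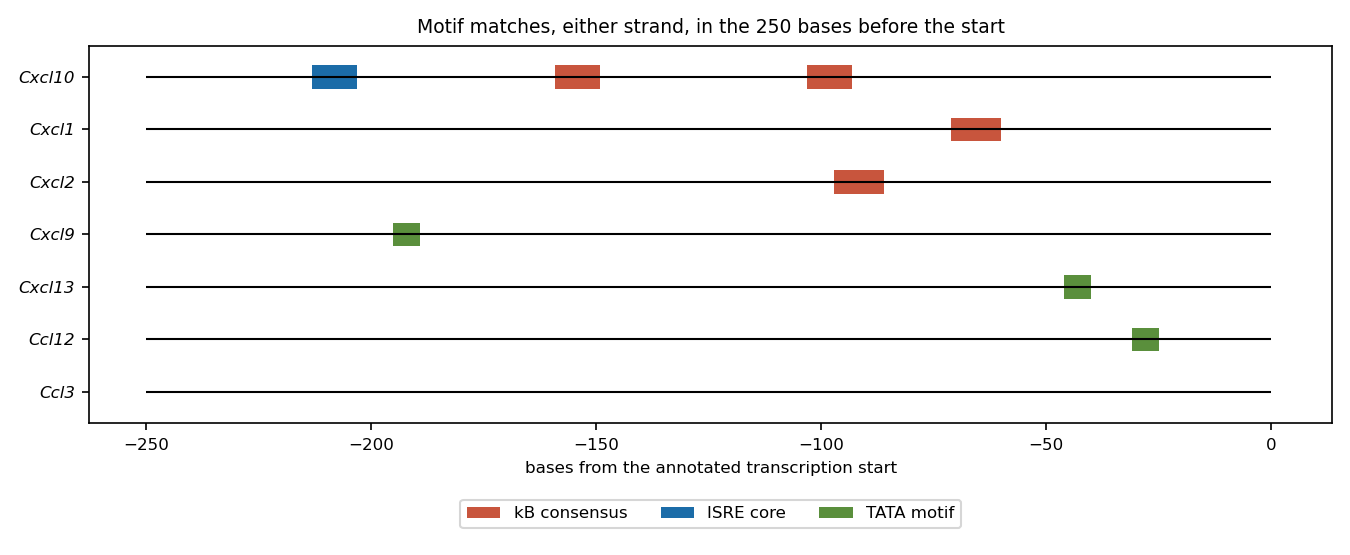
Positions of motif matches on either strand in the 250 bases before the annotated start of 7 chemokine genes, with the start at 0. The kB consensus (red) lies in Cxcl10, Cxcl1 and Cxcl2, the ISRE core (blue) in Cxcl10, the TATA motif (green, TATAAA) in Cxcl9, Cxcl13 and Ccl12, and none of them in Ccl3.

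Cxcl10 rose 19.0-fold in microglia from a low level, with 11 counts in all in saline controls and 10 in saline knockouts. With saline it was at 0.346, 0.171 and 0.726 CPM in controls and at 0.521, 0.0923 and 0.689 CPM in knockouts. After LPS it was at 8.29, 4.56 and 13.1 CPM in controls and at 9.90, 7.21 and 7.96 CPM in knockouts. All 6 LPS libraries were above all 6 saline libraries. Over both genotypes the log2 fold change was 4.24 (SE 0.40, adjusted p 2.61e-05), with 4.16 in controls (SE 0.57, adjusted p 0.00189) and 4.32 in knockouts (SE 0.58, adjusted p 0.00138). Leaving out any 1 library kept both calls.

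Astrocyte Cxcl10 reached the highest level of any chemokine here, with a wide spread. Saline libraries lay close together, at 3.67, 4.02 and 5.36 CPM in controls and at 4.75, 6.16 and 4.02 CPM in knockouts. LPS libraries held 466, 135 and 32.4 CPM in controls and 2052, 47.5 and 10.9 CPM in knockouts. All 6 were above the saline range, yet the highest was 189 times the lowest. Averaged over genotypes the log2 fold change was 6.37 (SE 1.42, adjusted p 0.0337), or 82.7-fold. Without LPS knockout 1 it was 4.07 (adjusted p 0.0151). The call was lost without any 1 of the 6 saline libraries, without LPS control 1 or without LPS control 2 (adjusted p up to 0.105). Within a genotype it missed the threshold, at 5.60 in controls (SE 1.94, adjusted p 0.281, or 0.0420 without LPS knockout 1) and 7.14 in knockouts (SE 2.07, adjusted p 0.160), the latter 2.54 without LPS knockout 1. Art3 overlaps Cxcl10 on the other strand and no strand setting was stated for the counting, so reads of both cannot be told apart with certainty. Art3 itself ran from 0.714 to 2.43 CPM in saline and from 1.98 to 16.7 CPM in LPS astrocytes.

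Cxcl9 rose in astrocytes from near 0. Saline libraries held 0.0510, 0.137 and 0.270 CPM in controls and 0.211, 0.244 and 0.0718 CPM in knockouts, or 9 and 10 counts in all. LPS libraries held 51.3, 29.1 and 0.742 CPM in controls and 37.0, 19.4 and 8.32 CPM in knockouts. LPS control 3 was the lowest by far and still above the saline range. This gave a mean log2 fold change of 7.13 (SE 0.99, adjusted p 0.00222), with 7.43 in controls (SE 1.41, adjusted p 0.0430) and 6.82 in knockouts (SE 1.39, adjusted p 0.0430). Each of the calls within a genotype was lost without 1 of 9 libraries, with adjusted p up to 0.222 in controls and 0.209 in knockouts. The call averaged over genotypes held without any 1 library, at 6.70 to 7.43.

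In microglia Cxcl9 stayed near the limit of detection. It had 1 count in all in saline controls, 14 in saline knockouts, 14 in LPS controls and 20 in LPS knockouts, so it was not tested. The LPS to saline ratio in controls was 8.56, with an exact 95% counting interval from 1.30 to 362. The knockout to control ratio in saline was 12.5, with an interval from 1.91 to 530 that covers counting error only, and both ratios share the single count of the saline controls.

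Cxcl13, the ligand of Cxcr5 that guides B cells, lies at chr5:95956951-95961068 on the plus strand. It was the member closest to silent without LPS. In microglia it had 0 counts in every saline control library and 1 count, in saline knockout 3, in all saline knockouts. LPS controls held 1.13, 1.18 and 2.26 CPM (53 counts) and LPS knockouts 1.75, 1.06 and 0.796 CPM (28 counts). All 6 LPS libraries were above all 6 saline libraries. Against a floor of 3 counts over the group, the level in LPS controls was at least 10.8-fold higher than in saline controls. In knockouts the ratio was 29.5, with an exact 95% counting interval from 4.88 to 1207. edgeR called the rise in controls (adjusted p 0.0147), in knockouts (0.0369) and over both (0.000805), while DESeq2 gave no adjusted p for it in controls. The calls were lost in controls without saline control 3 or LPS control 3, and in knockouts without 1 of 8 libraries (adjusted p up to 0.207).

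Astrocytes held no Cxcl13 count in any saline library. LPS controls had 2 counts and LPS knockouts 14, in all 3 knockout libraries at 0.110, 0.269 and 0.306 CPM. This is at least 3.81-fold above the saline knockouts, and the gene was too low to test.

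Ccl2 and Ccl12 are ligands of Ccr2 and recruit monocytes. They lie on the plus strand of chromosome 11, at chr11:82035571-82037453 and chr11:82101845-82103400, and their annotated transcripts share runs of at most 17 bases. Gm17268 overlaps Ccl2 on the other strand and was at 0 counts in all 24 libraries.

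Ccl2 rose 4.49-fold in microglia. Saline controls held 2.94, 1.54 and 2.36 CPM and saline knockouts 1.91, 1.20 and 1.61 CPM. LPS controls held 3.69, 4.63 and 14.3 CPM and LPS knockouts 12.0, 5.94 and 10.6 CPM. The injections did not overlap, and LPS control 1 was the lowest of the LPS libraries. Over both genotypes the rise was 2.17 on the log2 scale (SE 0.36, adjusted p 0.00265). It was 2.64 in knockouts (SE 0.51, adjusted p 0.0186), where the call was lost without 1 of 5 libraries (adjusted p up to 0.123). In controls it was 1.70 (SE 0.49, adjusted p 0.256), and 0.90 without LPS control 3.

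In astrocytes the Ccl2 rise rested in good part on 1 library. Saline libraries held 0.408, 0.821 and 0.270 CPM in controls and 0.317, 0.293 and 0.215 CPM in knockouts. LPS libraries held 7.40, 5.19 and 1.07 CPM in controls and 47.6, 1.56 and 1.12 CPM in knockouts. All LPS libraries were above the saline range, with LPS knockout 1 far above the rest. The rise averaged 4.53 on the log2 scale (SE 0.99, adjusted p 0.0202), and 2.71 without LPS knockout 1 (adjusted p 0.00506). The call was lost without any 1 saline library or LPS control 2 (adjusted p up to 0.0798). Neither genotype passed alone, at 3.17 in controls (SE 1.32, adjusted p 0.364; 0.0307 without LPS knockout 1) and 5.88 in knockouts (SE 1.49, adjusted p 0.0854; 2.25 without LPS knockout 1, and 6.44 with an adjusted p of 0.0132 without LPS knockout 3).

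Ccl12 was the chemokine with the most transcripts per length in saline microglia, and it rose 5.17-fold. Its saline levels were 6.05, 9.24 and 4.63 CPM in controls and 3.82, 3.69 and 9.19 CPM in knockouts. Its LPS levels were 11.1, 25.9 and 40.1 CPM in controls and 51.7, 38.0 and 25.7 CPM in knockouts. The injections did not overlap. Its mean log2 fold change was 2.37 (SE 0.34, adjusted p 0.000740), with 2.78 in knockouts (SE 0.48, adjusted p 0.00825; 0.0684 without saline knockout 2) and 1.97 in controls (SE 0.47, adjusted p 0.106). Without LPS control 1 the value in controls was 2.36 and passed (adjusted p 0.0188).

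In saline astrocytes Ccl12 was at or near 0, with no count in controls and 3 counts in knockouts. After LPS it was at 0.660, 0.293 and 2.89 CPM in controls and at 1.07, 8.46 and 2.35 CPM in knockouts. All 6 LPS libraries were above the saline libraries, and here LPS control 3 was the highest control. Controls were at least 22.5-fold higher after LPS against a floor of 3 counts over the group. The ratio in knockouts was 63.2, with an exact 95% counting interval from 21.3 to 309. edgeR called the rise in controls (adjusted p 0.0411), knockouts (0.0278) and over both (0.00107). Leaving out 1 library ended the call in controls in 8 cases and in knockouts in 4, and over both genotypes in 0 of 12.

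Ccl3, Ccl4 and Ccl5 draw T cells, natural killer cells and monocytes, and Ccl3 and Ccl5 bind Ccr1. They lie within one stretch of chromosome 11, Ccl5 at chr11:83525778-83530518 and Ccl3 at chr11:83647844-83649355 on the minus strand and Ccl4 at chr11:83662584-83664683 on the plus strand.

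Ccl5 was the most steeply raised of the 3 in both cell types. Saline microglia held 1.04, 2.74 and 2.45 CPM in controls and 2.43, 1.75 and 2.53 CPM in knockouts. LPS microglia held 13.2, 16.7 and 34.8 CPM in controls and 25.1, 27.2 and 24.4 CPM in knockouts. The LPS knockouts were close together, and no LPS library came near the saline range. Averaged over genotypes the rise was 3.43 on the log2 scale (SE 0.28, adjusted p 7.40e-06), or 10.8-fold, with 3.33 in controls (SE 0.40, adjusted p 0.000852) and 3.52 in knockouts (SE 0.40, adjusted p 0.000499). The calls in both genotypes held without any 1 library.

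Ccl5 in astrocytes started lower and spread more. Saline libraries held 0.510, 0.411 and 0.216 CPM in controls and 0.211, 0.244 and 0.144 CPM in knockouts. LPS libraries held 26.1, 62.6 and 0.907 CPM in controls and 26.0, 86.4 and 13.1 CPM in knockouts. LPS control 3 stood just above the saline range, and the other 5 far above it. The rise averaged 6.95 on the log2 scale (SE 1.05, adjusted p 0.00470), or 123-fold, and held without any 1 library at 6.38 to 7.23. It was 7.63 in knockouts (SE 1.55, adjusted p 0.0480), a call lost without 1 of 9 libraries. In controls it was 6.27 (SE 1.41, adjusted p 0.0904), and 6.83 without LPS control 3 (adjusted p 0.000139).

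Ccl3 rose 2.48-fold in microglia, the smallest rise that passed. Saline microglia held 3.28, 4.96 and 2.81 CPM in controls and 4.51, 3.69 and 4.94 CPM in knockouts. LPS microglia held 7.31, 7.47 and 11.8 CPM in controls and 8.77, 14.8 and 10.00 CPM in knockouts. The injections did not overlap, and the mean log2 fold change was 1.31 (SE 0.23, adjusted p 0.00389). Neither genotype passed alone, at 1.28 in controls (SE 0.32, adjusted p 0.139) and 1.34 in knockouts (SE 0.32, adjusted p 0.0606). The knockout value passed without saline control 2 or saline control 3 (adjusted p as low as 0.0357).

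Ccl3 in astrocytes ran from 1.08 to 2.65 CPM over the 6 saline libraries (median 2.51) and from 2.56 to 9.24 CPM over the 6 LPS libraries (median 4.91). LPS control 3 alone fell within the saline range. The mean log2 fold change was 1.16 (SE 0.36) and missed the threshold (adjusted p 0.0655), and it passed without LPS control 3 or LPS knockout 3, the latter at 1.33 (adjusted p 0.0253).

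Ccl4 was the member with the least change. Microglia ran from 1.27 to 3.63 CPM in saline (median 2.42) and from 3.69 to 5.52 CPM after LPS (median 4.53), without overlap. The mean log2 fold change was 0.92 (SE 0.27, adjusted p 0.109), not called by edgeR and called by DESeq2. Astrocytes ran from 0.0718 to 1.60 CPM in saline (median 0.785) and from 0.330 to 1.29 CPM after LPS (median 0.829), and the LPS range lay inside the saline range. The mean log2 fold change there was 0.09 (95% interval −1.32 to 1.51, adjusted p 0.962).

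**Figure D3:**
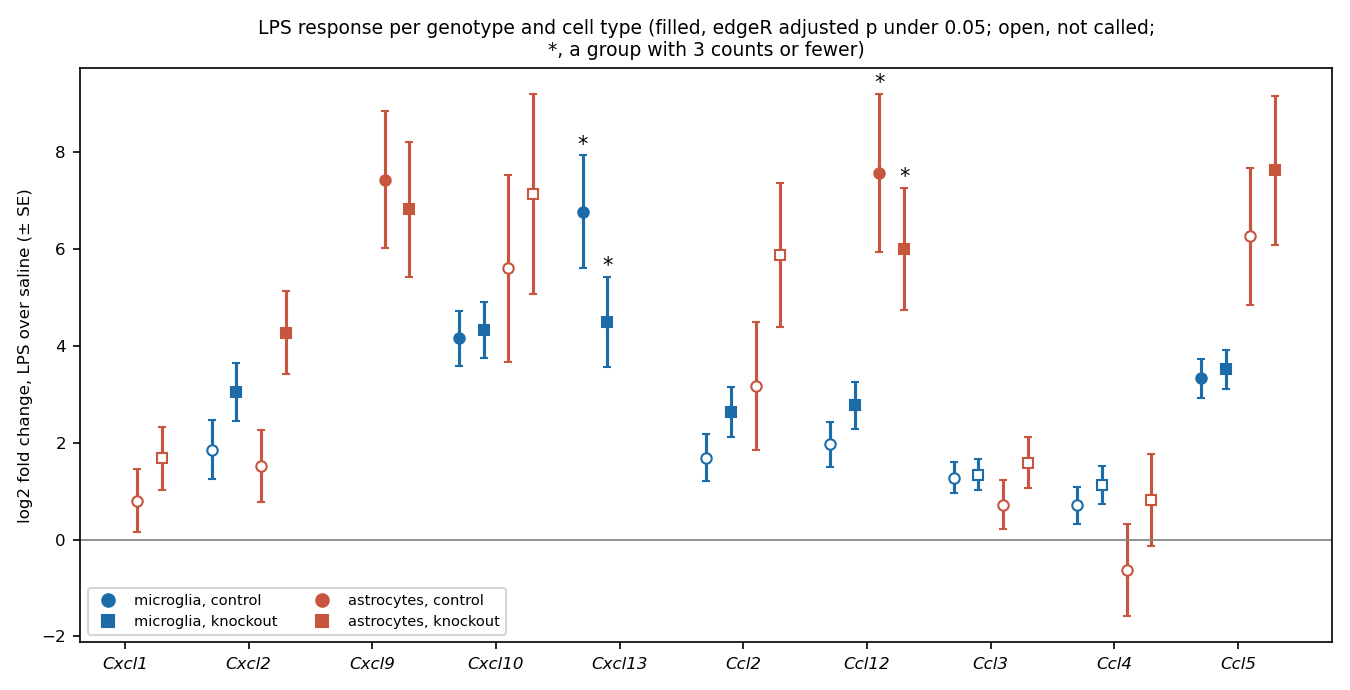
Log2 fold change after LPS with its standard error for each chemokine tested, in microglia (blue) and astrocytes (red) and in controls (circles) and knockouts (squares). Filled symbols passed the edgeR test; standard errors reach 2.07 in astrocytes (Cxcl10 in knockouts), and asterisks mark fits in which a group had 3 counts or fewer.

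Compared by level per kilobase of the longest mRNA, the chemokines stood in a different order in each cell type, whose libraries were normalized separately. In saline microglia Ccl12 stood first at 11.4 ± 4.75 CPM per kb (SD, n = 6), above the range of Ccl3 at 5.27 ± 1.18, while Ccl3, Ccl5 and Ccl4 overlapped. After LPS Ccl12 (59.8 ± 26.4 CPM per kb) and Ccl5 (44.3 ± 14.5) overlapped and both were above Ccl3 (13.1 ± 3.78). In saline astrocytes Cxcl1 (3.60 ± 1.68 CPM per kb), Cxcl10 (3.45 ± 0.704) and Ccl3 (2.87 ± 0.817) overlapped at the top. After LPS Cxcl10 (338 ± 591 CPM per kb) and Ccl5 (67.4 ± 60.6) led, with ranges that overlapped from library to library.

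Whether the LPS response differed between the cell types was tested over all 24 libraries. Of the 10 genes, Ccl5 and Ccl12 were called with a smaller log2 fold change in microglia than in astrocytes. Of 24607 genes, 1.78% were called that way. These are ratios to saline levels, which differed. Ccl12 ran from 3.69 to 9.24 CPM in saline and from 11.1 to 51.7 CPM in LPS microglia. In astrocytes it ran from 0 to 0.106 CPM and from 0.293 to 8.46 CPM. Ccl5 ran from 1.04 to 2.74 CPM and from 13.2 to 34.8 CPM in microglia. In astrocytes these ranges were 0.144 to 0.510 CPM and 0.907 to 86.4 CPM. The difference in log2 fold change, microglia minus astrocytes, was −3.49 for Ccl5 (SE 0.90, adjusted p 0.0373) and −4.61 for Ccl12 (SE 1.19, adjusted p 0.0367). Ccl12 had 0 counts in saline control astrocytes and Cxcl9 had 1 in saline control microglia, so their fitted differences depend on the small count added to each library. Ccl2 differed by −2.34 (95% interval −4.31 to −0.36, adjusted p 0.230; −0.51 without astrocyte LPS knockout 1) and Cxcl9 by −5.52 (−10.9 to −0.11, adjusted p 0.328). Cxcl10 differed by −2.11 (95% interval −6.05 to 1.83), Cxcl2 by −0.44 (−2.11 to 1.24), Ccl3 by 0.18 (−0.75 to 1.11) and Ccl4 by 0.85 (−0.57 to 2.27), none of them called. Without astrocyte LPS knockout 1 the Cxcl10 difference was 0.19. Ccl5 lost its call without 1 of 17 libraries and Ccl12 without 1 of 14, with adjusted p up to 0.0795 and 0.0693. The Ccl5 call was also lost with the labelled sex as a covariate, and the Ccl12 call with the replicate number as a block. In the former fit microglia LPS control 1 kept the label that its transcripts went against. Cell type went together with brain region, cell preparation, gene annotation and the share of reads in no gene, which cannot be told apart here.

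Whether loss of Serpine2 altered the chemokines was asked within each injection. No chemokine was called between knockout and control in any of the 4 comparisons, by edgeR with its filter on low counts or by DESeq2. Without that filter edgeR called 1, Cxcl10 in LPS astrocytes. The share of all genes called by edgeR was 0.0% in saline and in LPS microglia and 0.0055% in saline and in LPS astrocytes. Of the tested chemokines 0 in saline microglia, 0 in LPS microglia, 1 in saline astrocytes and 0 in LPS astrocytes had an unadjusted p under 0.05, among 351, 335, 500 and 497 genes in all.

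In saline microglia knockout over control ran from −0.57 for Ccl2 (95% interval −1.75 to 0.62) to 0.27 for Ccl3 (−0.45 to 0.98) over the 7 chemokines with more than 3 counts in each group. In LPS microglia the intervals all covered 0 and reached as far as 1.86, for Cxcl2, so differences of that size were not excluded. Knockout over control was 0.25 for Ccl5 (95% interval −0.47 to 0.97 on the log2 scale), −0.03 for Cxcl10 (−0.92 to 0.85), 0.33 for Ccl3 (−0.31 to 0.98) and 0.11 for Ccl4 (−0.66 to 0.88). Ccl12 stood at 0.59 (−0.34 to 1.51), Cxcl2 at 0.81 (−0.24 to 1.86), Ccl2 at 0.37 (−0.57 to 1.32) and Cxcl13 at −0.32 (−1.47 to 0.84). The value for Ccl2 was 0.04 without LPS control 1 and 1.22 without LPS control 3.

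In LPS astrocytes most intervals were wide. Cxcl10 was 1.73 higher in knockouts on the log2 scale (95% interval −1.96 to 5.43) and Ccl2 1.87 higher (−0.71 to 4.45), and without LPS knockout 1 these became −2.86 and −1.76. Ccl12 stood at 1.64 (−0.40 to 3.68), Cxcl1 at 1.02 (−0.32 to 2.37), Cxcl2 at 0.69 (−0.81 to 2.20), Ccl5 at 0.48 (−1.86 to 2.82) and Cxcl9 at −0.33 (−2.45 to 1.80). Ccl4 stood at 0.58 (−1.43 to 2.59), and Ccl3, with the narrowest interval, at 0.41 (−0.65 to 1.47). Same-numbered LPS astrocyte libraries deviated together, and with the replicate number as a block Cxcl10 turned to −0.42, Ccl2 stood at 0.42 and Ccl5 at 1.09, with 0 chemokines called. Cxcl1 stood at 0.71 with the block, likewise not called.

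For Cxcl2 in saline astrocytes every knockout library lay below every control library. The 3 knockout libraries lay between 0.144 and 0.369 CPM and the 3 control libraries between 0.730 and 1.63 CPM, a direction in which 4.98% of all genes separated. Knockout over control was −2.06 on the log2 scale (95% interval −3.81 to −0.31, unadjusted p 0.0237, edgeR adjusted p 1.00). The knockout response to LPS minus the control response was 2.75 for Cxcl2 in astrocytes (95% interval 0.45 to 5.06, unadjusted p 0.0220, edgeR adjusted p 1.00), and both comparisons use the same saline libraries. Of the 10 chemokines 0 were called for this difference between genotypes in microglia and 0 in astrocytes, by edgeR or DESeq2, with 0.0% of all genes called by edgeR in each. At an unadjusted p under 0.05 there were 0 tested chemokines in microglia and 1 in astrocytes, among 251 and 473 genes.

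**Figure D4:**
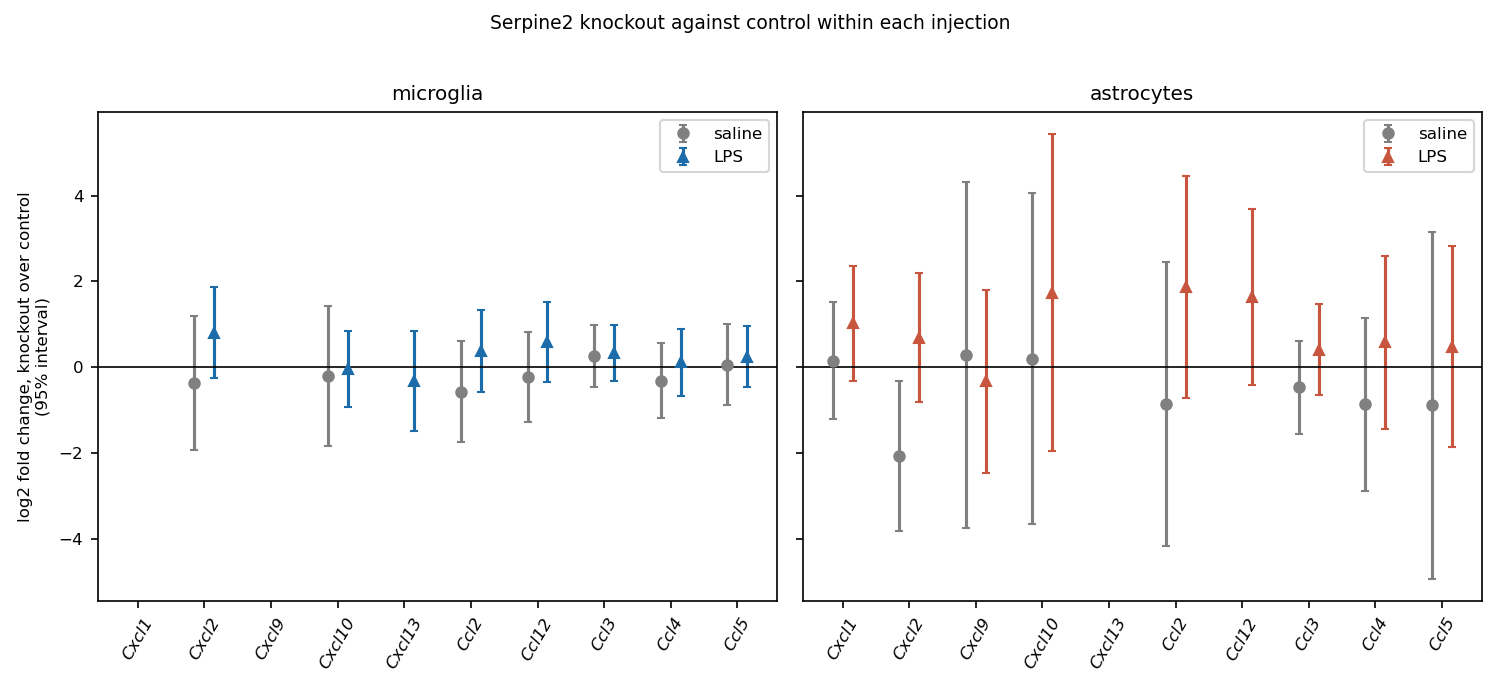
Log2 fold change of knockout over control with its 95% interval for each chemokine tested, in saline (grey circles) and after LPS (coloured triangles), left in microglia and right in astrocytes; saline Cxcl13 in microglia and saline Ccl12 in astrocytes, with at most 3 counts a group, are not drawn. In LPS microglia all 8 intervals cover 0, and of those drawn for astrocytes only the interval of Cxcl2 in saline does not.

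The spread between astrocyte LPS libraries was shared by most of the tested chemokines. For all of them but Ccl4 and Ccl12, LPS control 3 and LPS knockout 3, both labelled female, lay below the other 4 LPS libraries, labelled male. Which single library was lowest or highest differed between genes. LPS control 3 was the lowest of the 6 for 5 of the 9 tested genes (Cxcl1, Cxcl9, Ccl2, Ccl3 and Ccl5), while LPS knockout 1 was the highest for 4 (Cxcl1, Cxcl10, Ccl2 and Ccl3) and LPS knockout 2 for another 4 (Cxcl2, Ccl4, Ccl5 and Ccl12). With LPS control 3 and LPS knockout 3 left out, a choice made after these values had been seen, 8 of 10 chemokines were called in astrocytes over both genotypes in place of 6, and 7 in knockouts in place of 4. Calls over all genes rose as well, with 6.9% and 3.36% of them called higher. Ccl3 then had a log2 fold change of 1.46 (edgeR adjusted p 0.0120) and Cxcl1 one of 1.60 (adjusted p 0.0227). With the labelled sex as a covariate 6 were called over both genotypes. In microglia LPS control 1 was the lowest LPS library for 6 of 8 genes and LPS control 3 the highest for 4.

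Markers of other cell types moved with LPS in both preparations, and their part in the chemokine results was not tested. In astrocytes, where 4.98% of all genes tested were called higher, 5 of 6 endothelial markers rose. Their summed level went from 2.65 to 8.49 CPM in saline libraries to 12.6 to 72.1 CPM in LPS libraries. It was highest in LPS knockout 2. There 4 of 6 neuron markers rose too, with sums of 50.2 to 75.1 CPM in saline and 81.3 to 168 CPM after LPS. Of 8 neutrophil markers 2 could be tested in astrocytes and both rose, and their sum was at most 0.274 CPM in saline and 1.07 to 19.6 CPM after LPS, with Camp and Elane at 0 in all groups. T and NK cell markers summed to 0.411 to 1.51 CPM in saline and 0.306 to 4.90 CPM in LPS astrocytes, with Cd3e, Cd3g, Nkg7 and Klrb1c at 0 in all groups. Microglia markers in astrocyte libraries summed to 122 to 173 CPM in saline and 106 to 297 CPM after LPS, and 1 of 8 was lower. In microglia, where 2.19% of all genes tested were called higher, 3 of the 9 T and NK cell markers rose. Their sums were 1.04 to 4.90 CPM in saline and 11.3 to 38.3 CPM after LPS. In the same libraries 5 of 8 microglia markers fell and 2 of 7 monocyte markers rose. The microglia markers had a median log2 fold change of −1.05, against −0.03 over all genes. Of 8 neutrophil markers 4 fell in microglia over both genotypes, 3 in knockouts and 0 in controls, by edgeR. Their median log2 fold change over both genotypes was −0.96. Their sum in saline microglia was 1118 to 2241 CPM in knockouts and 581 to 727 CPM in controls, and no single marker passed between these genotypes. After LPS it was 293 to 856 CPM in knockouts and 469 to 783 CPM in controls.

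**Figure D5:**
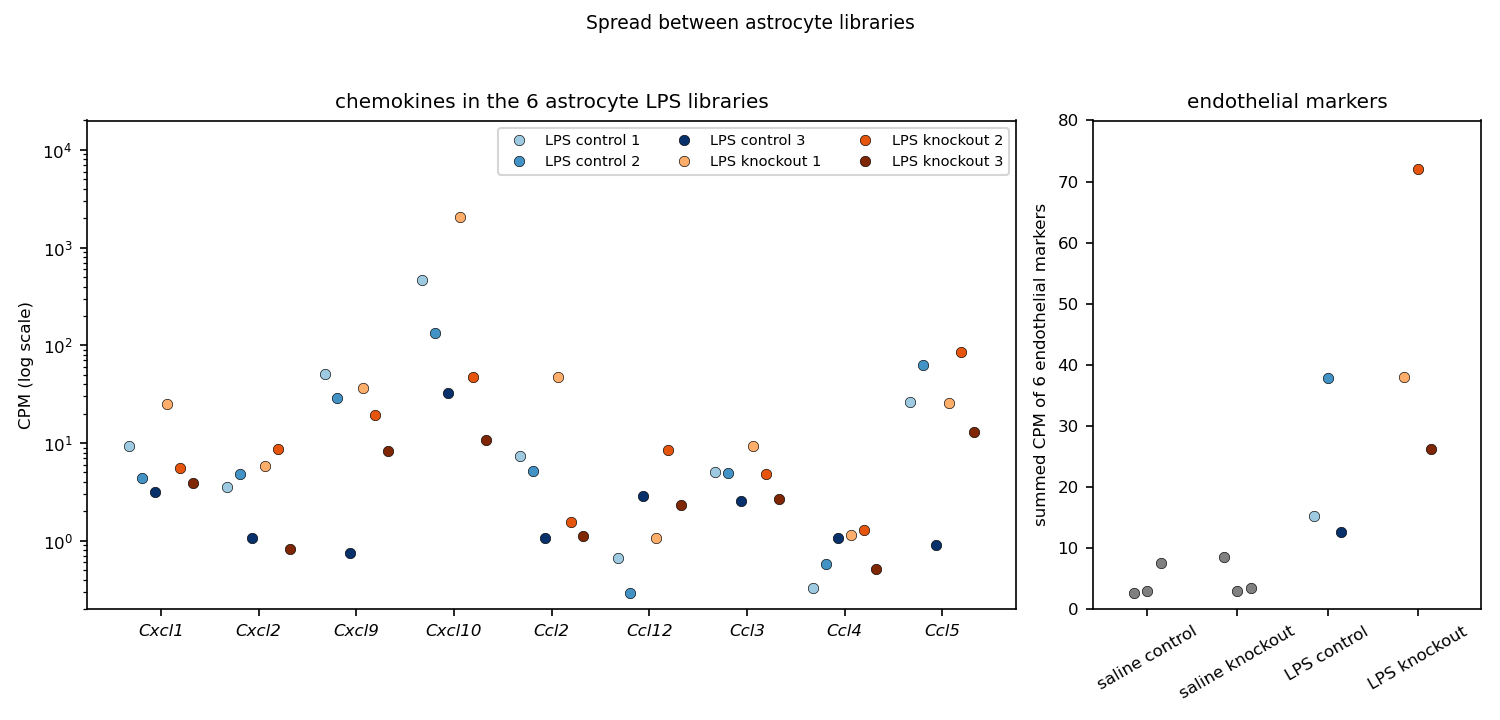
Left, CPM of 9 chemokines in each of the 6 astrocyte LPS libraries, on a log axis; right, the summed level of 6 endothelial markers in each of the 12 astrocyte libraries. LPS knockout 1 is the highest point for Cxcl10 and Ccl2, LPS knockout 2 for Ccl5 and for the endothelial sum (72.1 CPM), and LPS control 3 is the lowest for Cxcl9 and Ccl5.

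Of 27 other chemokines 2 rose in microglia over both genotypes, where 2.19% of all genes did, namely Cxcl16, a membrane-bound ligand of Cxcr6, by 2.49 on the log2 scale (SE 0.27, edgeR adjusted p 7.14e-05) and Ccl6, a myeloid CC chemokine, by 1.50 (SE 0.30, adjusted p 0.0101). The median over the 16 tested was 0.21. In astrocytes, where 4.98% of all genes rose, 1 of the 27 did, the Cxcr4 ligand Cxcl12, by 2.73 (SE 0.63, adjusted p 0.0164), and the median over 12 tested was 0.35.

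Of 24 chemokine receptors, Cx3cr1, the fractalkine receptor that marks microglia, fell by 1.35 on the log2 scale in microglia (SE 0.26, adjusted p 0.00861). Ackr2, a scavenging receptor of CC chemokines, rose by 1.57 (SE 0.32, adjusted p 0.0116). In astrocyte libraries only Ackr1 passed, rising by 4.03 (SE 0.60, adjusted p 0.000644). Ackr1 is an atypical chemokine receptor known from venular endothelium and red cells, and the part of other cells in its rise was not tested.

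Of 28 genes that sense LPS or drive chemokine transcription, 4 rose in microglia, where 2.19% of all genes did. These were the cytokine genes Il1b (log2 fold change 3.40, SE 0.36, adjusted p 6.06e-05) and Tnf (2.40, SE 0.35, adjusted p 0.00102), the interferon regulatory factor Irf7 (1.84, adjusted p 0.0108) and the adaptor Myd88 (0.84, adjusted p 0.0382). In astrocytes 8 rose, where 4.98% of all genes did. Among them were Irf7 (3.35, SE 0.48, adjusted p 0.000529), Irf9 (1.59, adjusted p 0.00150), the LPS co-receptor Cd14 (2.53, adjusted p 0.00181) and Irf8 (2.89, adjusted p 0.0136).

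The genes whose pattern was most like the mean of the tested chemokines were found by Pearson's r of log2 CPM over the 12 libraries of a cell type, which fall into saline and LPS sets. In microglia, among 12902 genes averaging at least 8 CPM, these were Fcgr4 (r = 0.98), Ifi30, Marco, Saa3 and Acod1. Fcgr4 encodes an Fc receptor and ran from 1.66 to 3.10 CPM in saline and from 13.3 to 35.9 CPM after LPS. Single chemokines had r of 0.87 (Ccl4) to 0.97 (Ccl5) with that mean, of which each is a part. In astrocytes, among 7741 genes, they were Ptprj (r = 0.97), Tagln2, Iigp1, Trim30a and Slc7a5. Iigp1, an interferon-induced GTPase, ran from 0.502 to 1.42 CPM in saline and reached 457 CPM after LPS. There Ccl4 had an r of 0.37 and Ccl12 of 0.71 with the mean of the 9 chemokines, and the others lay between 0.74 and 0.94.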

How the data were processed

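RNA was measured in 24 libraries of immunopanned mouse microglia and astrocytes. The authors deposited raw read counts, as whole numbers, for each Ensembl gene. The aligner STAR 2.6.0c, the counter HTSeq and the builds GRCm38 and GRCm39 are named per the submitters' processing notes. Which build served which table, the counting mode and the strand setting were not given in the sources used here. Coordinates and lengths are those of GENCODE on GRCm38 and promoter sequences those of RefSeq on GRCm38.p6, matched by symbol for 7 of 10 members.

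From these counts, CPM, with edgeR's TMM library sizes, were computed within each cell type. Genes were kept by filterByExpr (minimum count 10, total 15), keeping 22230 microglia genes and 18188 astrocyte genes for testing. edgeR 4.0.16 (R 4.3.3) fitted quasi-likelihood models (robust) in which each group had its own mean, over the 12 libraries of a cell type. Tests were two-sided, with p-values adjusted by Benjamini-Hochberg over all genes, in 13 comparisons. The comparison of cell types used all 24 libraries. Intervals are 95%. SE is that of the log2 fold change and SD is over libraries. Counting intervals and floors (3 counts over a group) cover counting error only, since reads had no molecular identifiers. The series' design speaks of sibling pairs without naming each library's mouse, so p-values measure the spread between these libraries. Replicate numbers paired the LPS astrocyte libraries by the correlation of their deviations (0.16 to 0.35) and no other set.

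Alternatives were RLE factors, DESeq2 1.42.0, no count filter, a minimum count of 50, labelled sex or the replicate number (as a block) added to the model, models holding just the pair of groups at issue, and leaving out libraries singly. The fits were tested on simulated data.

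The members and lists were chosen with earlier results of these data known. All 10 members were named. Of 27 other chemokines, 24 receptors and 28 inducers, up to 5 called genes per list and comparison were named by smallest p (some are not reported here), with the 5 genes most like the members and Serpine2, Xist, Ddx3y and overlapping genes as checks. Predicted genes were left out of the genes most alike.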

Additional observations from a re-analysis of the deposited data

Results flagged for a closer look

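Ccl5 and Ccl12 differed in their response to LPS between the cell types by the test of the difference itself, over both genotypes and all 24 libraries. The log2 response of Ccl5 in microglia minus that in astrocytes was −3.49 (SE 0.90, edgeR adjusted p 0.0373), from 3.43 in microglia and 6.95 in astrocytes when each was fitted alone. For Ccl12 the difference was −4.61 (SE 1.19, adjusted p 0.0367), from 2.37 and 6.79, fitted values that depend on the small count added to the 0 counts of saline control astrocytes. The Ccl5 call was lost without any 1 of 17 of the 24 libraries and with the labelled sex as a covariate. The Ccl12 call was lost without any 1 of 14 and with the replicate block. In both genes the 6 LPS libraries lay above the 6 saline libraries in each cell type. The differences are in ratios to saline, not in levels. After LPS, Ccl12 stood at 11.1 to 51.7 CPM in microglia and at 0.293 to 8.46 CPM in astrocytes. Cell type, brain region and preparation cannot be told apart in this design.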

How the results depend on the processing

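Averaged over genotypes, the number of chemokines called after LPS stayed within 1.5 times its main value under every alternative run, at 5 to 8 in microglia and 4 to 8 in astrocytes. RLE factors changed no count of calls. DESeq2 called 5 in control microglia in place of 3 (Cxcl10, Ccl2, Ccl3, Ccl5 and Ccl12, with no adjusted p for Cxcl13) and 4 in control astrocytes in place of 2. Without a filter on low counts there were 7 in control microglia, 5 in control astrocytes, 7 in knockout astrocytes in place of 4, 1 for knockout against control in LPS astrocytes (Cxcl10) in place of 0, and 5 for the difference between cell types in place of 2. A fit of only the groups compared gave 1 in control astrocytes. With the labelled sex as a covariate, 1 chemokine was called for the difference between cell types. Without the third astrocyte LPS library of both genotypes, chosen after seeing the data, 7 were called in knockout astrocytes and 4 for the difference between cell types. The cause of these shifts was not tested. Leaving out 1 library gave 0 to 4 calls in control astrocytes, 0 to 5 in knockout astrocytes, 3 to 7 in knockout microglia and 0 to 2 for the difference between cell types.

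Replicate numbers are shared between genotypes, but same-numbered libraries did not deviate together in each case. The correlations of their deviations lay between −0.17 and 0.44 in microglia and between −0.10 and 0.01 in saline astrocytes, so there the number was not treated as pairing. In LPS astrocytes all 3 were over 0.1 (0.30, 0.16 and 0.35), and the report gives the blocked values. With the replicate block, 1 chemokine was called for the difference between cell types in place of 2, with 3 in control and 5 in knockout microglia, 3 in control and 5 in knockout astrocytes, and 7 and 5 over both genotypes in microglia and astrocytes. Each library correlated best with its own number in LPS astrocytes, which did not hold for every library in the other 3 sets. For LPS against saline and for the cell types, the block also joined same-numbered saline and LPS libraries. The correlations given here did not cover that link.

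Low counts limit what can be said of Cxcl1 and Cxcl9 in microglia and of Cxcl13 in astrocytes.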
